A study of Arabis alpina with 2 samples.

Results

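The fixed shared variants of chromosome 2 are single-base differences from the reference assembly that nearly every read carried in both sequenced libraries of this Arabis alpina series. They were chosen by their measured values: sites of chromosome 2 that both variant lists gave with the same base, with an allele frequency of at least 0.9, a coverage of at most 100 reads and a variant quality of at least 25 in each library. There were 237 such sites among the 1856 sites of chromosome 2 that both lists shared, and among 9753 shared sites in all. The allele frequency is the share of reads with the non-reference base, so frequency, coverage and quality chose the sites and are given below as a description without a test.

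The first library was made from flower-bud DNA of eop055BC1F2 plants: the eop055 mutant had been selfed, crossed back to its progenitor and selfed again, and mutant-looking plants were sampled as a pool, whose number of plants the labels do not state. The other library was made from flower buds of that progenitor, pep1-1, before the mutagenesis that gave eop055. Both groups descend from pep1-1 in the Pajares background, and plants were grown in long days at the start of the reproductive stage. Each group had 1 library, so nothing here has a replicate check. The pool list held 14923 sites with a median coverage of 106 reads, and 14029 sites with a median of 100 reads were listed for the progenitor.

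Arabis alpina is a perennial relative of Arabidopsis, and pep1 mutants flower without the prolonged cold that Pajares plants need. Alkylating mutagens modify guanine so that it pairs with thymine at the next replication. If the damaged guanine lies on the strand that the assembly prints, the change reads as G-to-A, and if it lies on the opposite strand it reads as C-to-T. Replication separates the strands, so changes that descend from the damage of 1 strand share a type along the stretch inherited from it. A backcross to the progenitor leaves alleles that both parents carry in full unchanged, whereas alleles carried by the mutant parent alone segregate. A site is named here by its reference base, its position on chromosome 2 counted from 1, and the base in the library of the authors' assembly, whose build the sources used here do not name. Both types together are called GC-to-AT changes.

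The sites were carried by nearly every read in both libraries. In the pool, 88 of 14786 reads over the 237 sites did not carry the variant base, or 0.595% (95% Wilson interval 0.483 to 0.733%). In the progenitor the count was 52 of 14229 reads, or 0.365% (0.279 to 0.479%). Intervals cover counting error only. Every read carried the variant at 197 sites in the pool, at 209 in the progenitor and at 185 in both libraries. Both libraries had other reads at 16 sites, the pool alone at 24 and the progenitor alone at 12. A single such read accounted for 20 of the sites in the pool and 19 in the progenitor.

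The best-covered of the fully carried sites show what the depth allows. G22943846A was carried by 83 of 83 reads in the pool and 93 of 93 in the progenitor, and G18371372A by 79 of 79 and 95 of 95 reads in the pool and the progenitor. G27708701A had 81 of 81 pool reads and 88 of 88 progenitor reads. Over the 10 deepest such sites the 2 libraries together gave 155 to 176 reads a site without an exception, and C34208730T was the only C-to-T change among them, with 75 pool and 84 progenitor reads. The others of the 10 were G8082334A, G30785864A, G19039825A, G27779679A, G17155076A and G23281674A. At a typical site the 95% interval was wider than these figures convey: the median lower bound of the allele frequency was 0.940 in the pool and 0.939 in the progenitor.

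At the other end, G10445966A stood at 0.9 in the pool (54 of 60 reads) and at 0.963 in the progenitor (52 of 54). G11994491A had 73 of 77 pool reads and 74 of 82 progenitor reads, and C34178400T had 51 of 53 pool reads and 69 of 76 progenitor reads. C8772929T stood at 0.909 in the pool and at 1 in the progenitor, where only 10 reads covered it. G20099821A stood at 0.932 in the pool and at 1 in the progenitor. The low values were thus in the pool for some of these sites and in the progenitor for others.

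Coverage was alike in both libraries over most of the chromosome. It ran from 34 to 97 reads in the pool, with a median of 61 and an interquartile range of 54 to 70. Progenitor coverage ran from 5 to 95 reads, with a median of 62 and an interquartile range of 53 to 70. The pool was the deeper library at 121 sites, the progenitor at 114, and they tied at 2. The difference lay in the thin tail: in the pool no site had 20 reads or fewer, whereas 12 progenitor sites did, and the pool had 42 to 84 reads at those 12. G8283229A (57 pool and 5 progenitor reads), C16229944T (66 and 5) and G11846291A (42 and 6) had the fewest progenitor reads among the GC-to-AT sites. With 5 reads and no exception, the lower bound of the allele frequency was 0.566, so the fixed state of such a site in the progenitor is weakly measured.

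**Figure D1:**
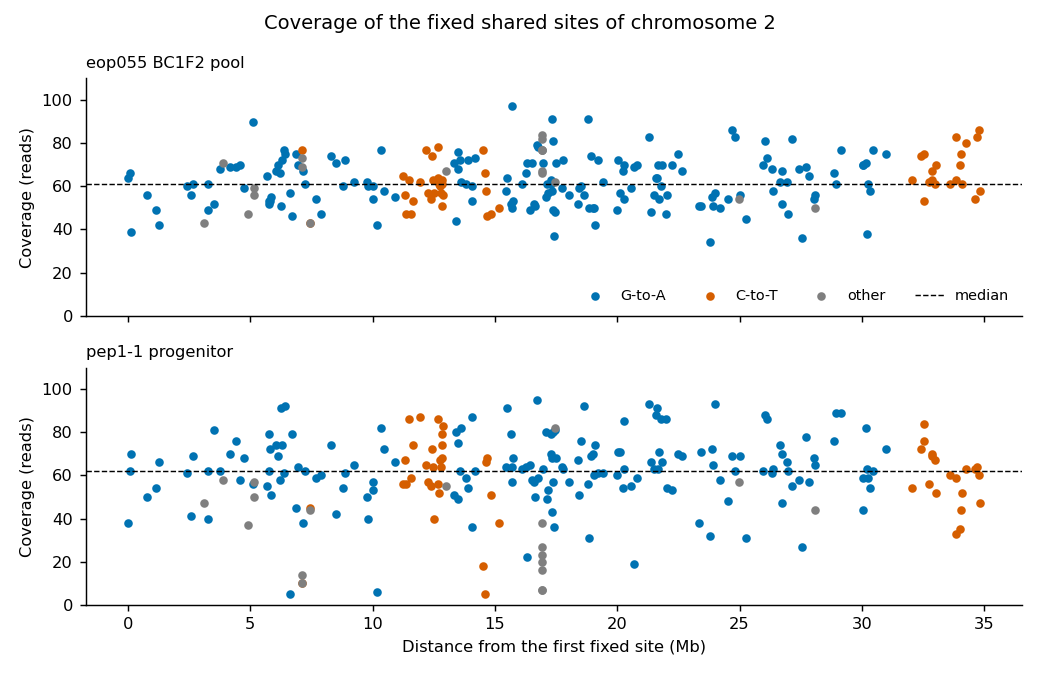
Coverage in reads of each of the 237 fixed shared sites against its distance in Mb from the first one, in the eop055 BC1F2 pool (above) and the pep1-1 progenitor (below); each point is a site coloured by type and the dashed lines are the medians of 61 and 62 reads. The points scatter around the same level in both panels, and those at 20 reads or fewer appear in the progenitor alone.

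The sites were mostly G-to-A changes with fewer C-to-T changes, and what caused them was not tested. Of the 237, 168 were G-to-A, 50 were C-to-T and 19 were of other types. Together the GC-to-AT changes made up 92.0% (95% interval 87.8 to 94.8%). Type was not used to choose the sites, but the coverage limit bore on it. Of 41 sites that this limit alone excluded, 6 were GC-to-AT, and without it the share was 80.6%. The share among all shared sites is not given here, so 92.0% has no such background beside it. Median pool coverage was 61 reads at G-to-A sites and 62 at C-to-T sites, and median progenitor coverage was 63 and 61.5 reads at the same sites. Reads without the variant were 0.394% of pool reads and 0.255% of progenitor reads at G-to-A sites, and 0.857% and 0.746% at C-to-T sites. Single sites weighed on these shares: C8772929T had 7 such reads in the pool and C34178400T 7 in the progenitor. Among G-to-A sites, G10445966A had 6 in the pool and G11994491A 8 in the progenitor. A difference between the types was not tested.

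Along the chromosome the 2 types did not mix but came in long blocks. Taking the sites in order and skipping the other types, these sites formed 10 unbroken runs with 9 switches, and 7 runs had at least 3 sites. These 7 blocks held 214 of the 218 sites. The remaining 4 sites formed 3 short runs between blocks 1 and 2, both of which were G-to-A.

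Block 1 had 34 G-to-A sites over 6.95 Mb, from G1649828A to G8597579A. G1649828A was carried by 64 of 64 reads in the pool and 38 of 38 in the progenitor, and G8597579A by 70 of 70 and 64 of 64. Block 2 had 15 G-to-A sites over 3.24 Mb, from G9333910A (54 of 54 pool reads, 59 of 59 progenitor reads) to G12572973A (55 of 55, 66 of 66). Between them lay C8772929T alone, then G8810335A (67 of 67 pool reads, 38 of 38 progenitor reads) and G8887797A (61 of 61, 61 of 62), then C9104179T alone. Both lone C-to-T sites had a member of another type within 2 bases: C8772929T was next to A8772930C, and C9104179T was 2 bases from A9104177C. Leaving out members within 10 bases of another, a choice made after seeing the data, joined both G-to-A blocks and left 6 runs and 5 switches.

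Block 3 was C-to-T, with 22 sites over 1.63 Mb from C12877235T to C14509501T. C12877235T was carried by 65 of 65 pool reads and 55 of 56 progenitor reads, and C14509501T by 54 of 56 and 79 of 83. It was the densest block, at 13.5 sites per Mb. Block 4, G-to-A, had 11 sites over 0.835 Mb, from G14986658A (71 of 71 pool reads, 51 of 51 progenitor reads) to G15821900A (73 of 73, 62 of 62), at 13.2 sites per Mb. Block 5 returned to C-to-T with 6 sites over 0.640 Mb, from C16157089T (77 of 77 pool reads, 18 of 18 progenitor reads) to C16797586T (50 of 50, 37 of 38). These 3 short blocks lie next to each other in the middle of the chromosome, so that 4 of the 5 changes of type between blocks fell between 12572973 and 17113725.

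Block 6 was by far the longest, with 106 G-to-A sites and no C-to-T site over 15.5 Mb, from G17113725A (58 of 58 pool reads, 64 of 64 progenitor reads) to G32646926A (75 of 75, 72 of 72). Block 7, the last, was C-to-T, with 20 sites over 2.79 Mb from C33683277T (63 of 63, 54 of 54) to C36476032T (58 of 58, 47 of 47). Their densities were 6.82 and 7.16 sites per Mb, against 4.89 and 4.63 in blocks 1 and 2. Summed over blocks, G-to-A spans covered 26.6 Mb and C-to-T spans 5.07 Mb.

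**Figure D2:**
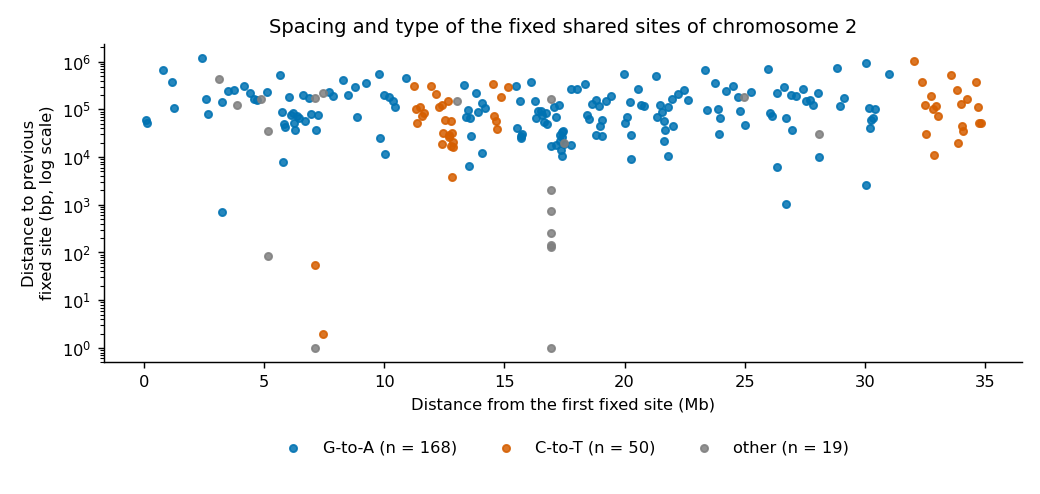
Distance in bp (log scale) of each fixed shared site to the previous one, against its distance in Mb from the first site, coloured by type (168 G-to-A, 50 C-to-T, 19 other). Colours change in blocks along the chromosome; the points below 1000 bp are mostly sites of other types and the 2 lone C-to-T sites.

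The intervals in which the type changed were 304 kb wide between blocks 2 and 3, 477 kb between blocks 3 and 4, 335 kb between blocks 4 and 5, and 316 kb between blocks 5 and 6. C14662486G (67 of 67 pool reads, 55 of 55 progenitor reads) was the only member inside any of these 4. The interval between blocks 6 and 7 was 1036 kb, wider than blocks 4 and 5, and it was one of only 2 gaps of at least 1 Mb between neighbouring members.

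This last interval held changes that every pool read carried but that the progenitor list lacked. After the minimums of 25 for variant quality and 10 for coverage, the pool list had 12 G-to-A or C-to-T sites there that were not listed in the progenitor, and 7 of them stood at 0.9 or more. G32695143A was carried by 87 of 87 pool reads, G33030591A by 81 of 81 and G33113756A by 84 of 84. G33348011A had 71 of 71 reads, G33358681A 67 of 67 and C33504681T 69 of 69, while G32752327A had 75 of 77 and a variant quality of 26.5. Their coverage of 67 to 87 reads was within the range of the fixed shared sites. They began 48.2 kb after the last shared G-to-A site and ended 179 kb before the first shared C-to-T site.

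In order of position these 7 sites were 6 G-to-A changes followed by 1 C-to-T change. Taken with the fixed shared sites on both sides, the type changed once across the interval, in the 146 kb between G33358681A and C33504681T. That narrower interval holds only if these pool-only sites belong to the same blocks, which was not tested. By position G33348011A and G33358681A lay nearer to the first C-to-T site of block 7 than to the last G-to-A site of block 6. The right end of the narrower interval rests on C33504681T alone. The other 5 pool-only G-to-A or C-to-T sites of the interval had allele frequencies of 0.329 to 0.449 with 56 to 86 reads. The upper ends of their 95% intervals reached at most 0.576, and the lowest bound among the 7, which were set apart by their frequency, was 0.910.

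The progenitor listed 11 sites of its own in the interval, with 18 to 45 reads and a median of 30. Only G33463972A was of these 2 types, at 0.389 with 18 reads and a variant quality of 3.25, and no progenitor-only site exceeded that frequency. Both lists shared 14 further sites in the interval, of which 11 lay within 14.8 kb and had 669 to 2771 reads in the pool and 525 to 2779 in the progenitor. The progenitor's depth at the 7 pool-only positions is not in its list, since sites at the reference base have no entry. The sheet of the progenitor also carries a label, V2, that the pool sheet lacks, and a difference in processing between the lists was not tested. Whether the progenitor library carried the reference base there or lacked usable reads was not tested.

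**Figure D3:**
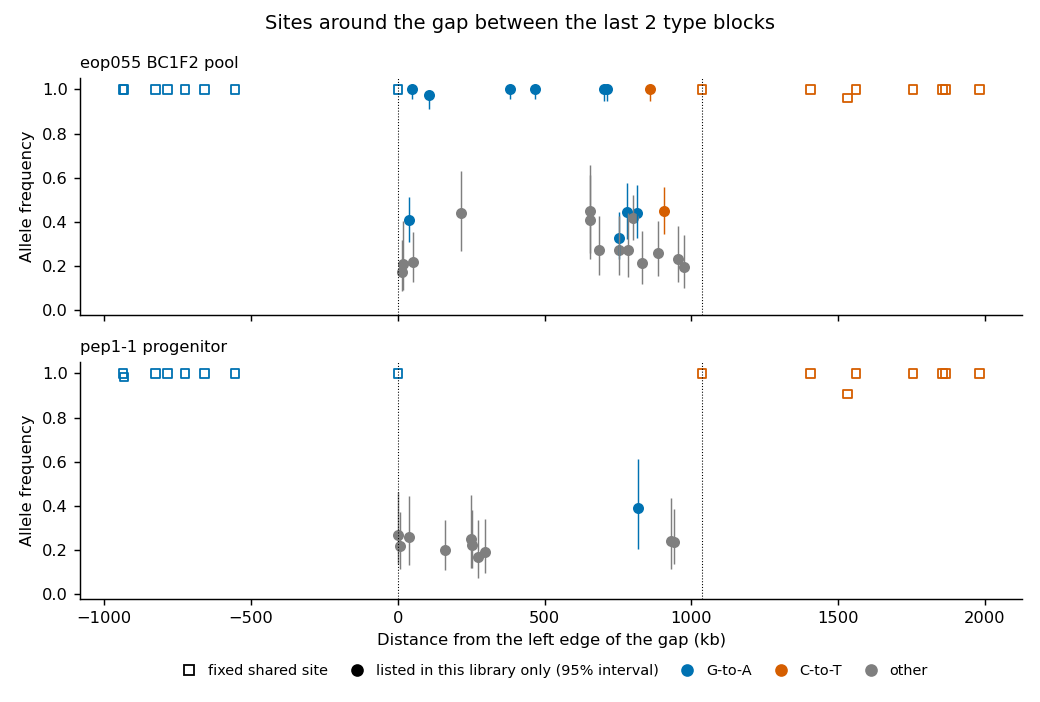
Allele frequency of sites around the interval between blocks 6 and 7, against distance in kb from its left edge, in the eop055 BC1F2 pool (above) and the pep1-1 progenitor (below). Open squares are fixed shared sites, filled points are sites listed in that library alone with 95% Wilson intervals, and dotted lines mark the ends of the interval; 7 pool-only G-to-A or C-to-T sites stand at 0.974 or more and the progenitor has none.

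Outside that interval the pool-only near-fixed changes of ordinary depth were few and had the type of the nearest GC-to-AT member. G9498684A, with 52 of 52 pool reads, lay inside block 2. C16816025T, with 83 of 83 reads and a variant quality of 30.5, lay 18.4 kb past the end of block 5, and counting it would narrow the following interval to 298 kb. The remaining 2 pool-only sites at 0.9 or more did not have the type of the nearest GC-to-AT member. C10024325T lay within a G-to-A block. G14661417A lay in the interval between C-to-T block 3 and G-to-A block 4, nearer to block 3. Their coverage was 1551 and 3245 reads, far above that of any fixed shared site as chosen. Of all 11 pool-only sites at 0.9 or more, 7 had the type of the nearest GC-to-AT member. Of 42 GC-to-AT sites of chromosome 2 listed in the progenitor alone and past the same minimums, 0 reached 0.9, and their highest allele frequency was 0.808.

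Among pool-only changes at lower frequencies, both types occurred within blocks of either type. Of 105 pool-only GC-to-AT sites below 0.9, with a median allele frequency of 0.424, 57 had the type of the nearest fixed shared site, or 54.3% (95% interval 44.8 to 63.5%). G-to-A made up 68.1% of those nearest to a G-to-A site (47 of 69, 56.4 to 77.9%) and 72.2% of those nearest to a C-to-T site (26 of 36, 56.0 to 84.2%), and these intervals overlapped. Within block 6, whose 106 fixed sites were all G-to-A, the pool-only GC-to-AT sites were 17 G-to-A and 15 C-to-T, with a median frequency of 0.397. Within block 7, whose 20 fixed sites were all C-to-T, they were 11 G-to-A and 1 C-to-T, with a median of 0.470.

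Members were spread over the chromosome at 6.81 per Mb between the first and last. The median distance between neighbours was 91.4 kb (interquartile range 37.4 to 188 kb), and 122 of 236 distances were under 100 kb. Of the 37 bins of 1 Mb, bins 1 and 4 were empty, and the median bin held 6 sites. The densest bin, from 18000001 to 19000000, held 21: 14 G-to-A changes and 7 of other types. The next densest, from 14000001 to 15000000, held 15, of which 13 were C-to-T. That bin also had the most shared sites of any kind, 591, so its members were a small share of what both lists held there. Block 4 had 13 shared sites of any kind, 11 of them members, and block 3 had 722 shared sites with 22 members, at almost the same density of members.

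**Figure D4:**
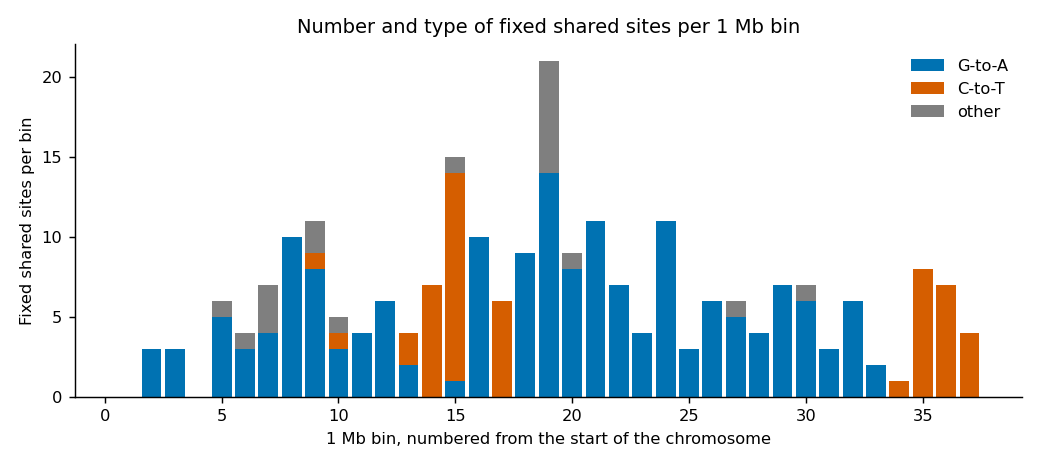
Number of fixed shared sites in each 1 Mb bin of chromosome 2, stacked by type, with bins numbered from the start of the chromosome. Bin 19 is highest with 21 sites, bins 1 and 4 are empty, and 4 bins hold both G-to-A sites and C-to-T sites.

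The largest gap was 1.17 Mb, between G2900769A (42 of 42 pool reads, 66 of 66 progenitor reads) and G4068398A (60 of 60, 61 of 61). Inside it the pool list had 27 sites and the progenitor list 30. Among the 27 pool sites of the largest gap were 5 pool-only G-to-A changes past the same minimums, 0 of them at 0.9 or more. The gap of 1.04 Mb between the last 2 blocks was second. It was followed by 0.925 Mb between G30785864A and G31711342A, 0.747 Mb between G29750251A and G30497283A, and 0.718 Mb between G26907226A and G27625156A. In all 12 gaps reached 0.5 Mb: 10 inside G-to-A runs, 1 inside a C-to-T run and 1 between runs. The gap from G30785864A to G31711342A held few listed sites of any kind, 7 in the pool and 11 in the progenitor.

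No fixed shared site lay in the first 1.65 Mb. Both lists shared 23 sites before G1649828A, of which 1 was a G-to-A or C-to-T change, and the pool alone had 6 such changes there, at 0.276 to 0.516. At the other end C36476032T was 117 kb before the last position that either list held on the chromosome.

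Close neighbours were rare among GC-to-AT sites. G4898342A and G4899062A were 720 bp apart, the only distance under 1 kb between neighbouring sites of these 2 types. Over all types 10 distances were under 1 kb and 3 were at most 10 bp. The closest were C8772929T with A8772930C and T18588558A with A18588559T, each pair on neighbouring bases, followed by A9104177C with C9104179T, T8772875G with C8772929T, and G6807884T with A6807969G. Members of the pairs on neighbouring bases had nearly equal counts. T18588558A and A18588559T each had 73 of 77 pool reads and 7 of 7 progenitor reads. A8772930C had 70 of 73 pool reads and 10 of 10 progenitor reads beside 70 of 77 and 10 of 10 for C8772929T. Counts of T8772875G were less like those of C8772929T, with 69 of 69 pool reads and 14 of 14 progenitor reads. Neighbours this close can lie on the same reads and may not be independent sites, but single reads were not examined.

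The 19 members of other types were clustered and thinner in the progenitor. Their median coverage was 67 pool reads and 38 progenitor reads, while the GC-to-AT sites had 61 in the pool and 63 in the progenitor. A-to-T was the most frequent of them, with 6 sites. Of the 19, 12 had another member within 5 kb, against 10 of the 218 GC-to-AT sites. Inside G-to-A blocks lay 15 of them and inside C-to-T blocks 0, but G-to-A blocks spanned 26.6 Mb against 5.07 Mb. A single cluster held 7 of the 15, so the count does not tie these types to G-to-A blocks. All reads in both libraries carried the variant at 9 of the 19, against 176 of the 218.

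Of these 19, 7 lay within 3321 bp: A18586233T, G18586361C, A18588415T, T18588558A, A18588559T, A18589295T and C18589554A. Their coverage was 66 to 84 reads in the pool, with a median of 77, and 7 to 38 reads in the progenitor, with a median of 20. They account for all members of other types in the densest bin. A second cluster, T8772875G with C8772929T and A8772930C, had 69 to 77 pool reads and 10 to 14 progenitor reads. The low progenitor depth moved with these clusters, and its part in them was not tested.

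The other members of this kind had ordinary depth in both libraries. A4756998T was carried by 43 of 43 pool reads and 47 of 47 progenitor reads, A5523583T by 71 of 71 and 58 of 58, and G29740407T by 50 of 50 and 44 of 44. T6538841C had 47 of 47 pool reads and 37 of 37 progenitor reads, and C19120861G had 61 of 62 and 82 of 82. C26626571A stood at 0.963 in the pool and 0.965 in the progenitor.

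Chromosome 2 was compared with the other chromosomes by type, since type was not a limit in the choice of sites. Chromosome 2 and the groups set against it were, however, chosen with earlier results of these data known. Fixed shared sites chosen in the same way numbered 335 on chromosome 8 and 139 on the other 6 chromosomes together. They were 12.8% of the shared sites of chromosome 2, 25.8% of those of chromosome 8 and 2.62% of those of the other 6. GC-to-AT changes made up 92.0% on chromosome 2 and 93.1% on chromosome 8 (89.9 to 95.4%). The odds ratio was 0.846 with a 95% interval of 0.429 to 1.69, so no difference was detected (two-sided Fisher's exact test with Benjamini-Hochberg adjusted p = 0.628 over 2 comparisons). On the other 6 chromosomes they made up 52.5% (73 of 139, 44.3 to 60.6%). Among these 6 the share ran from 0% on chromosome 5, with 8 sites, to 68.2% on chromosome 7 (30 of 44), with 57.9% on chromosome 4 (33 of 57). The odds ratio of chromosome 2 against the 6 together was 10.3 (5.67 to 19.5; two-sided Fisher's exact test with Benjamini-Hochberg adjusted p = 6.20e-18). The test compares sites within 1 pair of libraries, and sites near each other are not independent. Its p-values therefore describe these lists alone.

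The balance between both types ran opposite ways on these chromosomes. G-to-A was 77.1% of the GC-to-AT sites on chromosome 2 (71.0 to 82.1%) and 3.21% on chromosome 8 (10 of 312, 1.75 to 5.80%). On the other 6 chromosomes together G-to-A sites numbered 38 and C-to-T sites 35. That near-even total joined unlike chromosomes. On chromosome 7 the G-to-A share was 70.0% (21 of 30, 52.1 to 83.3%), and this interval overlapped that of chromosome 2. On chromosome 4 the share was 39.4% (13 of 33, 24.7 to 56.3%). Chromosomes 1, 3, 5 and 6 had 5 or fewer GC-to-AT sites each. The longest run of a single type held 106 of the 218 GC-to-AT sites on chromosome 2 and 111 of the 312 on chromosome 8. It held 15 or fewer on any of the others, which had fewer sites. Chromosome 7 had a run of 15 among 30 GC-to-AT sites and 3 blocks, and chromosome 4 a run of 7 among 33 and 5 blocks. Switches of type numbered 9 on chromosome 2, 18 on chromosome 8, 8 on chromosome 4 and 9 on chromosome 7. The run length expected for each number of sites was not computed. Whether long runs were particular to chromosomes 2 and 8 was therefore not tested. Spacing was close between chromosomes 2 and 8: the median distance between neighbours was 91.4 kb on chromosome 2 and 89.5 kb on chromosome 8.

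**Figure D5:**
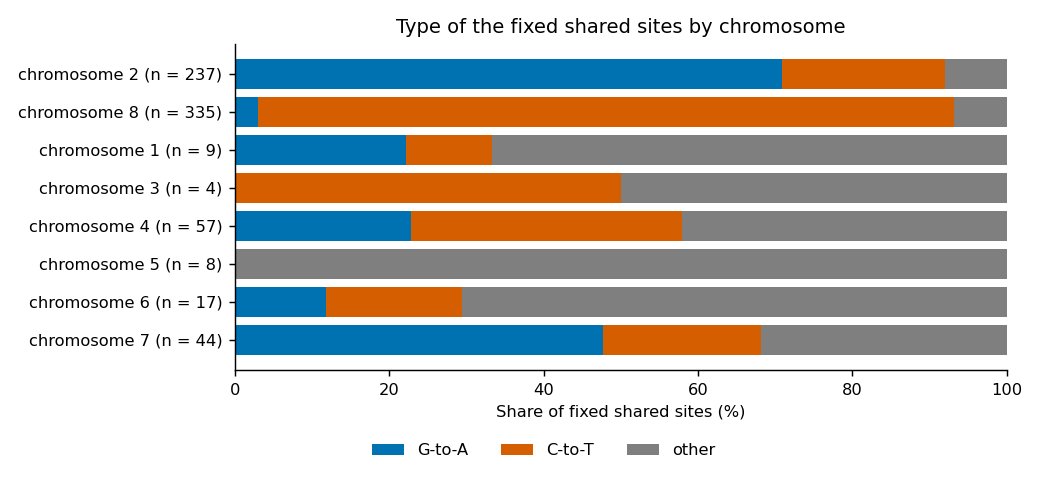
Share in percent of G-to-A, C-to-T and other changes among the fixed shared sites of each chromosome, with the number of sites beside each name. G-to-A leads on chromosome 2 (168 of 237 sites) and chromosome 7 (21 of 44), and C-to-T leads on chromosome 8 (302 of 335). Changes of other types take a larger share on chromosomes with few sites.

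Sites just outside the limits differed by the limit that kept them out. Between 0.8 and 0.9 in the lower library lay 8 shared sites that met the other limits, and all 7 of the G-to-A or C-to-T changes among them had the type of the nearest member. G20413324A, for example, stood at 0.899 in the pool and 0.882 in the progenitor. G24370099A stood at 0.849 in the pool, against 0.884 in the progenitor. Coverage alone excluded 41 sites, of which 34 had over 500 reads in at least one library and 6 were G-to-A or C-to-T. C16632655T and G22706036A each missed the limit by a single read, with 101 in the progenitor, were carried by all reads in both libraries, and had the type of the blocks around them. G14662548A, with 149 pool reads at 0.993 and 98 progenitor reads at 0.980, lay in the interval between C-to-T block 3 and G-to-A block 4. The deepest members inside the limit were G17332826A, with 97 pool reads, and G18371372A, with 95 progenitor reads. Variant quality alone excluded 12 sites, and 7 of these were G-to-A or C-to-T. The nearest, C5126328T with 24.0 in the pool on 4 reads, lay inside the G-to-A block 1, and without a quality minimum there were 13 switches and 9 blocks in place of 9 and 7. The lowest member was G23674368A with 34.5 in the pool and 33.5 in the progenitor.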

How the data were processed

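Genomic DNA libraries of the eop055 BC1F2 pool and of pep1-1 (1 each) had separate variant lists, matched to samples by the genotype in the sheet name. Bowtie2, SAMtools and DESeq are named in the submitters' processing notes; the sources used here state neither their roles nor, by name, the build. Both sheet names end in V3_6 and the progenitor's also holds V2, labels that are not explained there. The authors' deposited allele frequency is a fraction: variant reads over all reads. The headers of the deposited columns reads and quality are exchanged: the first holds a Phred-scaled quality score and the second the count of variant reads, since that count over a whole-number coverage gave the deposited frequency within 5e-05 at all 14923 and 14029 sites. Coverage was the count over the frequency, rounded.

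Sites were matched by position and base. Runs were maximal stretches of consecutive G-to-A or C-to-T sites; blocks had at least 3 sites. The run finder was tested on simulated data. Shares have Wilson 95% intervals; the share of GC-to-AT changes was compared by two-sided Fisher's exact test, adjusted by Benjamini-Hochberg. Python 3.11.15, numpy 2.4.6, pandas 2.3.3, scipy 1.17.1 and matplotlib 3.10.9 were used. Sites named were block ends, ends of the 5 largest gaps, short runs, the 10 deepest fully carried, the 5 lowest, the 5 closest pairs and members of other types; sites that are no members, those at the limits of the choice and the thinnest were named after their values were seen. The members and all lists were chosen with earlier results of these data known. Alternatives changed the limits on frequency, coverage and quality, block size and bins. Genes and sequence around the sites were not analysed here.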

Additional observations from a re-analysis of the deposited data

How the results depend on the processing

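Of 121 values under 19 alternative settings, 116 stayed on the same side of the test's threshold, within 1.5 times of a count, within the 95% interval of a share or at the same gap, and 5 moved. The largest gap fell to 1.04 Mb with an allele frequency minimum of 0.8 and to 1.14 Mb with limits on the progenitor list alone, against 1.17 Mb in the report. The share of G-to-A and C-to-T was 80.6% with no coverage maximum and 95.02% with a coverage minimum of 30, against 92.0%. Switches numbered 5 without members within 10 bp of another, against 9, and ranged from 7 to 13 elsewhere, with 13 when no quality minimum was set. Blocks numbered 6 to 9 and members 221 to 278. The odds ratio against the other 6 chromosomes ran from 8.11 to 12.1. The 3 alternatives added after seeing the data concerned runs and the densest bin. Without the cluster of 7 the bin from 18000001 to 19000000 kept 14 sites, and that from 14000001 to 15000000, with 15, was the densest. The cause of the other shifts was not tested. Depth limits the fixed state most at the 12 sites with 20 or fewer progenitor reads. No paired analysis was possible because there was 1 library per group.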
